A study of Homo sapiens with 9 samples.

Results

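The mitochondrial ribosomal proteins are the nuclear-encoded proteins of the ribosome that works inside mitochondria. They were taken as every protein-coding gene in the deposited table whose symbol begins with MRPL or MRPS followed by a digit. That gave 78 genes of the 60675 in the table, 49 named for the large subunit (MRPL) and 29 named for the small subunit (MRPS). RNA was sequenced from 3 subclones, SC01, SC07 and SC10, of the established melanoma line SK-MEL-5, which is of human origin and has a mutated BRAF gene. Each subclone had been grown from a single cell by limiting dilution in the absence of drug, so each stands for 1 clone. The clones had been chosen by their initial response to the BRAF inhibitor PLX-4720, but the response of each clone is not in the labels. All 9 libraries, 3 per clone, came from untreated cells, so the comparisons are between clones before any drug.

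The mitochondrial ribosome translates the mRNAs of the mitochondrial genome, which encode core subunits of the respiratory chain and of ATP synthase. Its rRNAs are transcribed inside the organelle, whereas its proteins are encoded in the nucleus, made in the cytosol and imported. Many of these proteins have counterparts in bacterial ribosomes, and others occur only in mitochondria. A few names mislead: structural work places MRPS18A and MRPS30 in the large subunit, and MRPS36 is a subunit of the 2-oxoglutarate dehydrogenase complex.

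Library totals ran from 30224066 to 39454087 counts, and single members held 48 to 8393 counts. All 78 members passed the filter on low counts and were among the 18009 genes tested. Levels are in CPM, a gene's counts relative to the library's size, scaled between libraries by edgeR's TMM method, and a gene was called where edgeR's quasi-likelihood test, adjusted over all genes tested, gave an adjusted p below 0.05. Whether a clone's 3 libraries stem from separate cultures is not in the labels, so the p-values reflect the spread among libraries alone, and that spread may be technical. Clone cannot be told apart from any batch of culture or extraction. SC10 replicate 3 stood apart from the other libraries of its clone. Its chi-square per degree of freedom over genes was 10.5 and 11.6 against them, where the pair itself gave 2.56, the other clones' libraries gave 3.18 to 6.12, and libraries of different clones gave 62.0 to 195. Of the melanocyte markers, 6 of 7 were tested, and the list summed to 10724 to 11382 CPM in SC01, 24353 to 24855 in SC07 and 15153 to 15372 in SC10. Their log2 changes against SC01 ran from -0.98 to 1.69 in SC07 and from -1.77 to 1.33 in SC10. SOX10 had no count in any library, and whether its RNA was absent or its reads were not assigned was not tested. Summed fibroblast markers (4 of 6 tested) lay at 132 to 137, 427 to 489 and 335 to 371 CPM in the same order. The tested ones went both ways, with log2 changes from -1.39 to 2.56 in SC07 and from -0.83 to 1.42 in SC10. Keratinocyte markers (3 of 7 tested, KRT1 at 0 throughout and KRT5 at 0 in SC01 and SC10) summed to 21.9 to 27.8 CPM. Immune markers (1 of 5 tested) reached at most 3.79 CPM and endothelial markers (1 of 3 tested) at most 10.3 CPM, both in SC07. These sums also differ between the clones, and their part in the members' differences was not tested.

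Summed over its genes, each subunit took a larger share of the RNA in SC07 and SC10 than in SC01. The 49 large subunit genes summed to 2577, 2621 and 2680 CPM in SC01, to 3215, 3172 and 3251 CPM in SC07 and to 3115, 3024 and 3346 CPM in SC10. The 29 small subunit genes summed to 1567, 1589 and 1614 CPM in SC01, to 1993, 1978 and 2030 CPM in SC07 and to 1855, 1821 and 1987 CPM in SC10. No SC07 or SC10 library reached down to the SC01 range in either sum, and SC10 replicate 3 was the highest SC10 library in both. The means of both subunits together were 4216 ± 75 CPM in SC01, 5213 ± 66 CPM in SC07 and 5049 ± 253 CPM in SC10 (SD, n = 3 each), which is 1.24 and 1.2 times the SC01 mean. Without SC10 replicate 3 the last ratio was 1.16. As shares of all counts, with no scaling between libraries, the members took 0.440% to 0.448% in SC01, 0.506% to 0.511% in SC07 and 0.473% to 0.519% in SC10. In bulk RNA a higher share of these transcripts cannot be told apart from a lower total of others.

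**Figure D1:**
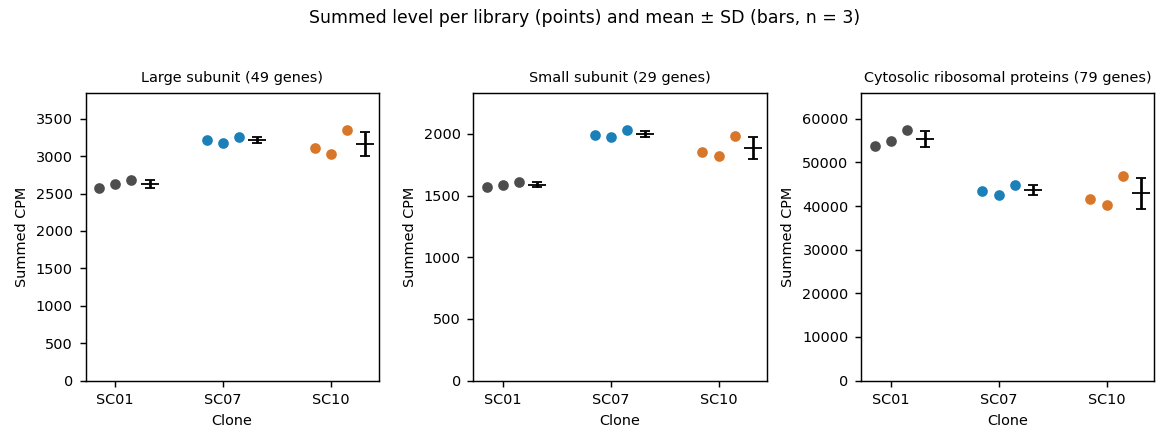
Summed TMM-scaled CPM of the 49 large subunit genes, the 29 small subunit genes and, for comparison, 79 cytosolic ribosomal protein genes, by clone. Points are libraries and bars are the mean ± SD of 3 libraries. Both mitochondrial sums sit lowest in the SC01 libraries, whereas the cytosolic sum sits highest there.

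With genes grouped by name, the balance between the subunits moved little. The ratio of summed large to summed small subunit CPM was 1.64, 1.65 and 1.66 in SC01, 1.61, 1.60 and 1.60 in SC07, and 1.68, 1.66 and 1.68 in SC10. SC07 lay below the other clones in all 3 of its libraries, and SC10 replicate 2 overlapped SC01. The SC07 mean was 0.972 times that of SC01. MRPS18A, MRPS30 and MRPS36 count in the small sum here, and the last pair were higher in SC07 and SC10. The ratio by location was not computed, so the order of the clones holds for the grouping by name alone.

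Within each subunit, which is assembled with a single copy of nearly every protein, RNA levels per kilobase of exon spanned a wide range. In SC01 the large subunit ran from 1.48 to 66.2 CPM per kilobase with a median of 20.7, and the small subunit from 1.37 to 101 with a median of 14. The highest large subunit genes over all clones were MRPL15 (91.9 CPM per kilobase), MRPL12 (76.3) and MRPL21 (72.6). MRPL12 encodes the flexible stalk that recruits translation factors, and another gene overlaps 68.2% of its exon bases. The lowest were MRPL53 (1.45), MRPL38 (1.74) and MRPL46 (1.75), of which MRPL53 and MRPL38 are overlapped over 45.2% and 41.1% of their exon bases. In the small subunit MRPS34 (102), MRPS18B (66.1) and MRPS26 (56.5) were highest. MRPS24 (1.08), MRPS18C (2.45) and MRPS17 (3.79) were lowest, and the last pair are overlapped over 40.2% and 27% of their exon bases. The exon length used is the union of all annotated exons, which lowers the value of genes with long, rarely used exons.

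The order of levels was not fixed across clones. MRPL12 led the large subunit in SC01, with 66.2 ± 3.4 CPM per kilobase against 65.7 ± 2.2 for MRPL21, a difference within their spread. MRPL15 stood at 49.8 ± 1.7 in SC01 but led in SC07 at 101 ± 2.0 and in SC10 at 125 ± 8.6 (SD, n = 3 each). MRPS34 led the small subunit in every clone, at 101 ± 3.2, 113 ± 6.7 and 93.3 ± 5.4 CPM per kilobase in SC01, SC07 and SC10.

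SC07 differed from SC01 mainly by higher members. Of the 49 large subunit genes 27 were higher and 8 lower, and of the 29 small subunit genes 19 were higher and 2 lower. Of all genes tested, 31.5% were higher and 30.5% lower in this comparison (62% called in either direction), so the members' share called lay near the background, and of those called 46 were higher and 10 lower. The median log2 change was 0.26 in the large subunit (range -0.41 to 1.02) and 0.28 in the small subunit (-0.31 to 1.21), against -0.01 over all genes tested. Scaled by library totals alone, the splits were 26 higher and 11 lower in the large subunit and 16 and 6 in the small one. The libraries did not overlap for 40 of the large and 23 of the small subunit genes, against 67.4% of all genes tested. Most changes were modest, with 14 of the 78 members changed by at least 1.5-fold and 2 by at least 2-fold.

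Among large subunit genes MRPL15 (ENSG00000137547, chr8:54135210-54147901, plus strand, GRCh38), a counterpart of a bacterial core protein, had the largest rise in SC07. Its levels were 58.5, 57.9 and 61.7 CPM in SC01, 123, 120 and 118 CPM in SC07 and 144, 141 and 160 CPM in SC10. The 3 clones did not overlap, and SC10 was highest in every library. The log2 change in SC07 was 1.02 ± 0.05 (SE, edgeR adjusted p = 3.1e-16).

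MRPL34 (ENSG00000130312, chr19:17292609-17306843, plus strand), a short basic protein with a bacterial counterpart, stood at 71.7, 72.7 and 77.5 CPM in SC01, 141, 137 and 156 CPM in SC07 and 132, 126 and 140 CPM in SC10. All SC01 libraries were low, and SC07 and SC10 overlapped. The log2 change in SC07 was 0.97 ± 0.05 (edgeR adjusted p = 2.4e-15). MRPL35 measured 117, 114 and 118 CPM in SC01, 207, 213 and 199 CPM in SC07 and 202, 199 and 214 CPM in SC10, a change of 0.83 ± 0.04 in SC07 with SC07 and SC10 intermixed. MRPL19, whose bacterial counterpart lies at the contact between the subunits, rose by 0.80 ± 0.05, from 61.5 to 66.1 CPM in SC01 to 109 to 113 CPM in SC07. MRPL58, a peptidyl-tRNA hydrolase that also acts in rescue of stalled ribosomes, rose by 0.70 ± 0.06. MRPL12 of the stalk rose by 0.43 ± 0.08 in SC07, where replicate 3 at 105 CPM stood above the other libraries at 88.9 and 82.4 CPM.

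The small subunit gene with the largest rise was MRPS9 (ENSG00000135972, chr2:105037983-105099960, plus strand), whose bacterial counterpart reaches the site of the peptidyl-tRNA. It measured 17.1, 14.6 and 16.9 CPM in SC01, 38.1, 38.7 and 35.4 CPM in SC07 and 33.1, 33.5 and 37.9 CPM in SC10. SC01 lay far below both other clones, which overlapped each other. In SC07 the log2 change was 1.21 ± 0.07, or 2.31-fold (edgeR adjusted p = 1.5e-14). MRPS5 (ENSG00000144029, chr2:95087207-95149434, minus strand), likewise of bacterial descent, stood at 66.2, 70.7 and 72.2 CPM in SC01, 139, 141 and 136 CPM in SC07 and 142, 142 and 153 CPM in SC10, again with SC01 alone at the low end. Its level in SC07 was 1.99-fold that in SC01 (edgeR adjusted p = 1.4e-16). MRPS30, placed in the large subunit by structure, stood at 48.5 to 51.1 CPM in SC01 and 92.2 to 94.6 CPM in SC07, a rise of 0.89 ± 0.05. MRPS25, a mitochondria-specific protein, rose by 0.76 ± 0.04 and separated all 3 clones, at 90.3 to 96.0, 154 to 160 and 120 to 125 CPM in SC01, SC07 and SC10.

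Lower members in SC07 changed by less. MRPL18 (ENSG00000112110, chr6:159789812-159798436, plus strand), of a bacterial protein family that binds 5S rRNA, stood at 43.2, 40.4 and 42.5 CPM in SC01 and 31.7, 33.0 and 30.2 CPM in SC07 with no overlap, and fell by 0.41 ± 0.06 on the log2 scale (edgeR adjusted p = 6.6e-07). MRPL40 and MRPL52, both specific to mitochondria, fell by 0.31 ± 0.06 and 0.29 ± 0.06. MRPL14, which binds the assembly factor MALSU1, fell by 0.21 ± 0.06. In the small subunit MRPS10 (ENSG00000048544, chr6:42206801-42217865, minus strand) measured 76.1, 75.7 and 69.5 CPM in SC01 and 59.2, 59.0 and 60.8 CPM in SC07, a fall of 0.31 ± 0.05 with no overlap. The other small subunit gene called lower was MRPS26, which fell by 0.15 ± 0.05, and without SC07 replicate 2 it was no longer called (edgeR adjusted p = 0.0826), which leaves 1 small subunit gene.

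**Figure D2:**
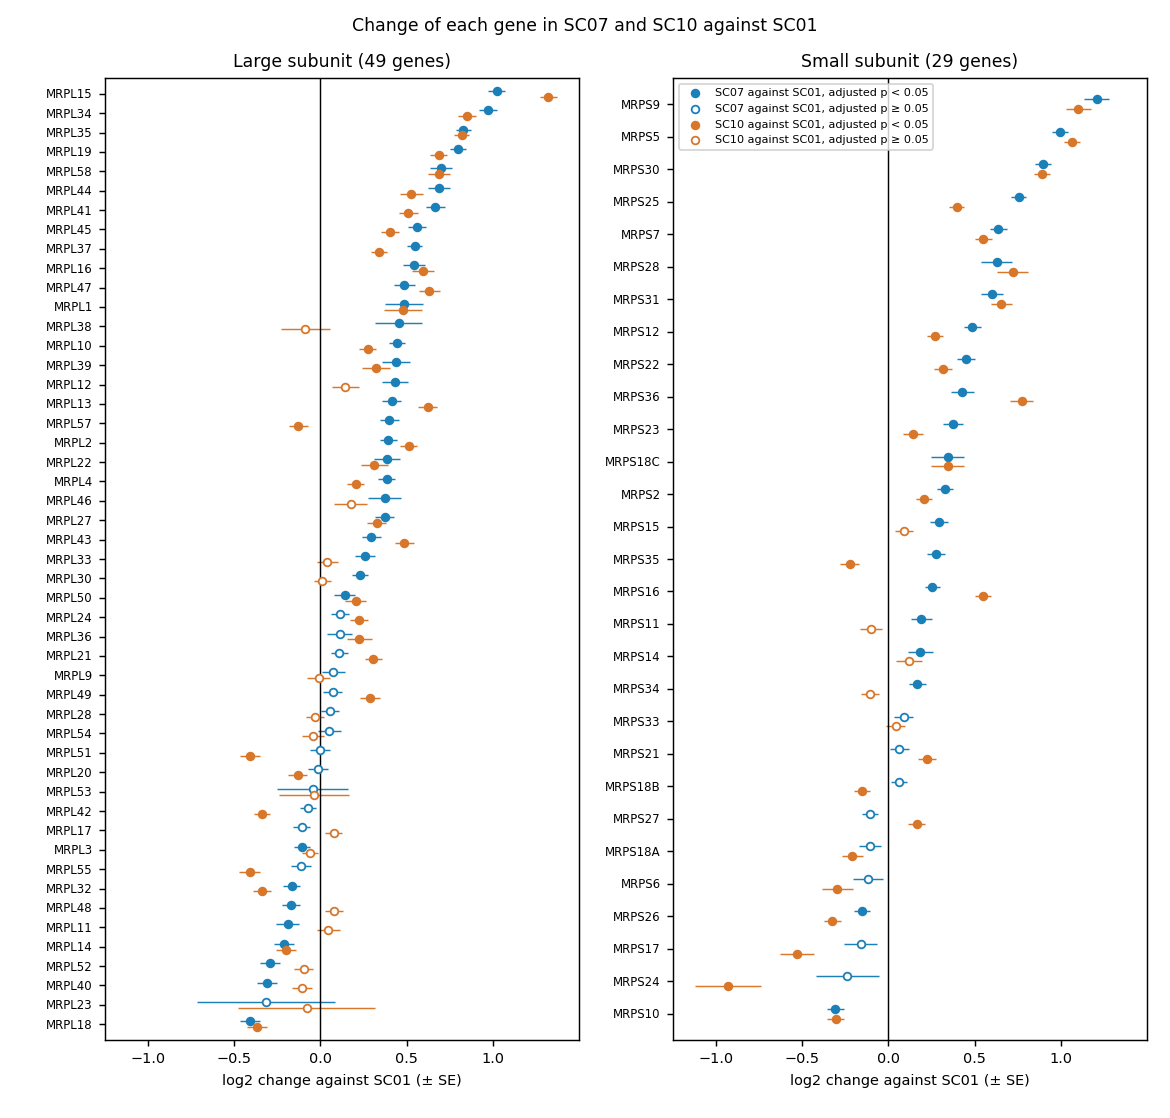
Fitted log2 change of each member in SC07 (blue) and SC10 (orange) against SC01, with bars of 1 standard error and members ordered by their change in SC07. Filled points passed an adjusted p of 0.05 in edgeR's test over all genes and open points did not; both contrasts share the SC01 libraries. Most points lie right of 0 in both subunits, and MRPL57 and MRPS35 have filled points on both sides.

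SC10 also differed from SC01 mainly by higher members. In the large subunit 25 genes were higher and 8 lower, and in the small subunit 16 were higher and 8 lower. Over all genes tested 33.5% were higher and 32.4% lower (65.9% called in either direction). Median log2 changes were 0.20 (range -0.41 to 1.32) and 0.16 (-0.93 to 1.10), against -0.01 over all genes. With library totals alone the splits were 22 higher and 13 lower in the large subunit and 12 and 10 in the small one, so there the small subunit was nearly balanced. Without SC10 replicate 3 they were 24 and 9, and 15 and 9. Libraries did not overlap for 35 of the large and 22 of the small subunit genes, against 69.1% of all genes tested.

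MRPL15 again had the largest rise in the large subunit, by 1.32 ± 0.05 on the log2 scale or 2.5-fold (edgeR adjusted p = 8.95e-19). MRPL34 followed at 0.85 ± 0.05, MRPL35 at 0.82 ± 0.04 and MRPL58 at 0.69 ± 0.06. In the small subunit MRPS9 rose by 1.10 ± 0.07, MRPS5 by 1.06 ± 0.05 and MRPS30 by 0.89 ± 0.05. MRPS36 (ENSG00000134056, chr5:69217760-69230129, plus strand), the dehydrogenase complex subunit that carries a ribosomal name, was next. It measured 21, 20.6 and 22.9 CPM in SC01, 28.2, 29.5 and 29.1 CPM in SC07 and 35.3, 34.6 and 40.3 CPM in SC10, in 3 ranges that did not overlap, and rose by 0.77 ± 0.07 in SC10.

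The deepest fall of any member was that of MRPS24 in SC10. MRPS24 (ENSG00000062582, chr7:43866558-43869893, minus strand), of a bacterial family at the mRNA entry site, measured 3.52, 3.41 and 3.77 CPM in SC01, 3.01, 2.32 and 3.79 CPM in SC07 and 1.80, 2.40 and 1.42 CPM in SC10. SC10 lay wholly below SC01, whereas SC07 overlapped both other clones. The log2 change in SC10 was -0.93 ± 0.19 (edgeR adjusted p = 0.00012). The annotated readthrough gene URGCP-MRPS24 overlaps 23.2% of its exon bases, and how reads in shared exons were assigned is not given in the sources used here. MRPS17, overlapped over 27%, fell by 0.53 ± 0.10, MRPS26 by 0.33 ± 0.05 and MRPS10 by 0.31 ± 0.05. In the large subunit MRPL51 (overlapped over 31.3%) and MRPL55 each fell by 0.41 ± 0.06, MRPL18 by 0.37 ± 0.06 and MRPL32, whose maturation depends on a protease of the inner membrane, by 0.34 ± 0.05.

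**Figure D3:**
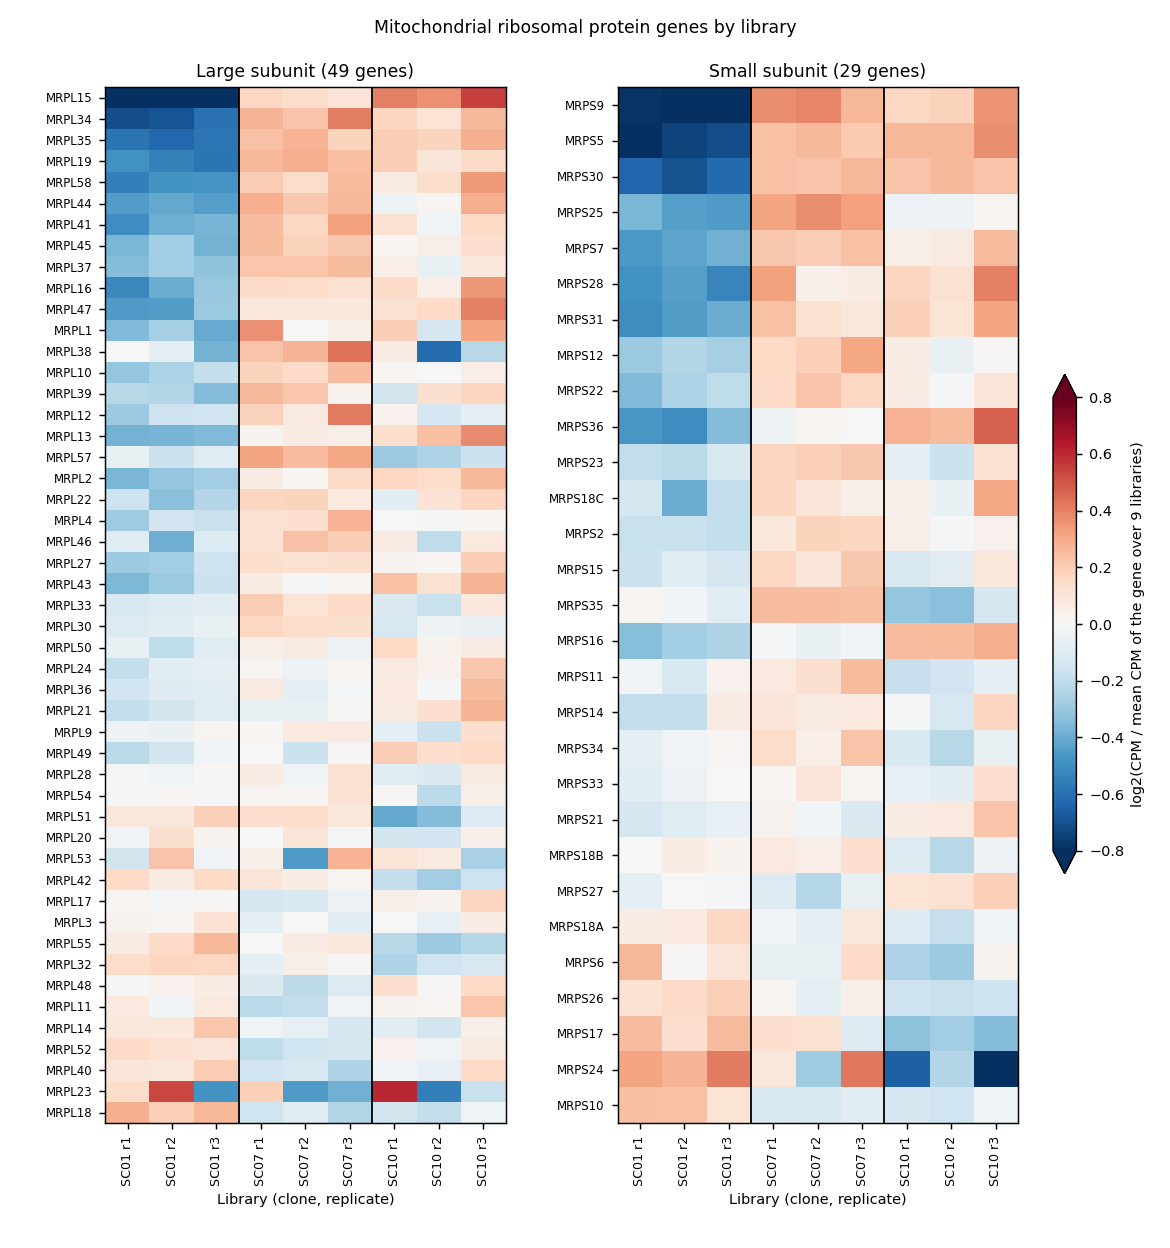
Level of each member in each library, as log2 of its CPM over its mean in the 9 libraries, with members ordered by their change in SC07 and colours saturating at 0.8 in either direction. Black lines part the clones. The top rows are low in all SC01 libraries and the bottom rows high there, and MRPL23 and MRPS24 vary most within a clone.

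Set against each other, SC10 had more lower than higher small subunit genes relative to SC07, and in the large subunit the order turned with 1 library. In the large subunit 10 genes were higher and 17 lower, and in the small subunit 4 were higher and 13 lower. Over all genes tested the shares were 24.8% higher and 23% lower (47.9% called). Median log2 differences were small, at -0.05 in the large subunit and -0.10 in the small subunit, against -0.01 over all genes. Libraries did not overlap for 28 of the large and 17 of the small subunit genes, against 53.4% of all genes tested. Without SC10 replicate 3 there were 10 higher and 19 lower large subunit genes and 4 higher and 16 lower small subunit genes. Without SC10 replicate 2 the large subunit had 13 higher and 12 lower genes, without SC10 replicate 1 it had 12 and 13, and without SC07 replicate 1 it had 10 and 12. The small subunit had 4 higher and 11 or 12 lower genes in these 3 fits. Differences between SC10 and SC07 ran from -0.69 for MRPS24 to 0.34 for MRPS36 over all members, so only MRPS24 reached 1.5-fold.

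The largest rises in SC10 over SC07 were those of MRPL15 (0.30 ± 0.05), MRPL48 (0.25 ± 0.05), MRPL11 (0.24 ± 0.07) and MRPL49 (0.22 ± 0.06) in the large subunit. In the small subunit they were MRPS36 (0.34 ± 0.06), MRPS16 (0.29 ± 0.04), MRPS27 (0.27 ± 0.05), an RNA-binding protein of the pentatricopeptide repeat family, and MRPS21 (0.16 ± 0.05). The largest falls were those of MRPL38 (-0.54 ± 0.14), MRPL57 (-0.53 ± 0.05), MRPL51 (-0.41 ± 0.06) and MRPL55 (-0.30 ± 0.06), and of MRPS24 (-0.69 ± 0.19), MRPS35 (-0.50 ± 0.06), MRPS17 (-0.37 ± 0.10) and MRPS25 (-0.36 ± 0.04). MRPS24 was no longer called without SC07 replicate 3 (-0.50, edgeR adjusted p = 0.0578), nor was MRPS21 (0.13, edgeR adjusted p = 0.0706). MRPL12, at -0.29 ± 0.07, was no longer called without SC10 replicate 3 (-0.27, edgeR adjusted p = 0.0889).

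MRPL57 and MRPS35 were called in opposite directions in the contrasts with SC01. MRPL57 (ENSG00000173141, chr13:21176645-21179084, plus strand), a short mitochondria-specific protein of the large subunit, measured 36.8, 33.9 and 35.8 CPM in SC01, 47.6, 45.5 and 47.5 CPM in SC07 and 31.3, 32.3 and 33.9 CPM in SC10. SC07 was high in every library, and the highest SC10 library met the lowest SC01 library. The log2 change was 0.40 ± 0.05 in SC07 and -0.13 ± 0.06 in SC10 (edgeR adjusted p = 3.4e-07 and 0.0457). The call in SC10 was lost with DESeq2 (adjusted p = 0.0667) and with the pair of clones fitted alone (edgeR adjusted p = 0.0626). It was also lost with no filter on low counts (edgeR adjusted p = 0.122). Leaving out SC01 replicate 1 or 3, any SC07 library, or SC10 replicate 1 or 2 lost it too. Without SC10 replicate 1 the change was -0.10 (edgeR adjusted p = 0.188). MRPS35 (ENSG00000061794, chr12:27710773-27756295, plus strand), specific to the mitochondrial small subunit, measured 47.8, 46.7 and 44.4 CPM in SC01, 56.1, 56.2 and 55.9 CPM in SC07 and 38.3, 37.6 and 43.1 CPM in SC10, with no overlap between clones. It changed by 0.28 ± 0.05 in SC07 and by -0.22 ± 0.06 in SC10 (edgeR adjusted p = 7.8e-05 and 0.0009).

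**Figure D4:**
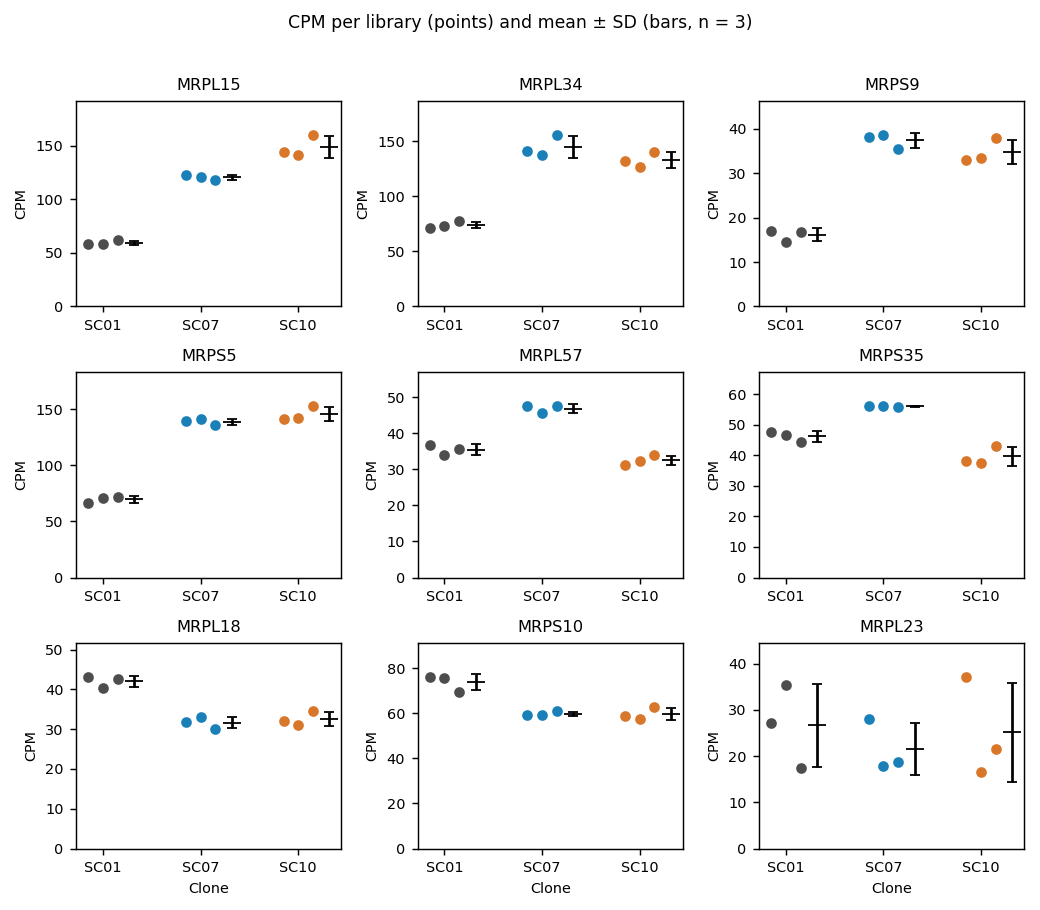
CPM of 9 members by clone, with a point for each library and bars for the mean ± SD of 3 libraries, each panel starting at 0. MRPL15, MRPL34, MRPS9 and MRPS5 are low in SC01, MRPL57 and MRPS35 are high in SC07, MRPL18 and MRPS10 are high in SC01, and the libraries of MRPL23 overlap in all clones.

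Each member can be placed by its calls in the contrasts of SC07 and SC10 with SC01, which share the SC01 libraries. Over the 3 clones together 42 large and 27 small subunit genes differed, against 76.3% of all genes tested. Of the 18009 genes tested, 4362 were higher in both contrasts, 4024 lower in both and 3997 called in neither. Another 277 were higher in SC07 and lower in SC10, and 351 had the reverse. Only in SC07 1036 were called higher and 1112 lower, and only in SC10 1315 and 1535. In the large subunit 21 genes were higher in both contrasts, namely MRPL1, MRPL2, MRPL4, MRPL10, MRPL13, MRPL15, MRPL16, MRPL19, MRPL22, MRPL27, MRPL34, MRPL35, MRPL37, MRPL39, MRPL41, MRPL43, MRPL44, MRPL45, MRPL47, MRPL50 and MRPL58. In the small subunit 14 were, namely MRPS2, MRPS5, MRPS7, MRPS9, MRPS12, MRPS16, MRPS18C, MRPS22, MRPS23, MRPS25, MRPS28, MRPS30, MRPS31 and MRPS36. Only MRPL14, MRPL18, MRPL32, MRPS10 and MRPS26 were lower in both. Members called higher in SC07 and not called in SC10 were MRPL12, MRPL30, MRPL33, MRPL38, MRPL46, MRPS11, MRPS14, MRPS15 and MRPS34, and those with the reverse were MRPL21, MRPL24, MRPL36, MRPL49, MRPS21 and MRPS27. MRPL3, MRPL11, MRPL40, MRPL48 and MRPL52 were called lower in SC07 and not called in SC10. MRPL20, MRPL42, MRPL51, MRPL55, MRPS6, MRPS17, MRPS18A, MRPS18B and MRPS24 were called lower in SC10 and not called in SC07. No member was lower in SC07 and higher in SC10. MRPL9, MRPL17, MRPL23, MRPL28, MRPL53, MRPL54 and MRPS33 were called in neither contrast, and of these MRPL17 was called between SC10 and SC07.

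The paralogs of the MRPS18 family, which share a bacterial ancestor, did not move as a group. MRPS18A, the large subunit paralog, overlapped by another gene over 47% of its exon bases, had a log2 difference of -0.11 ± 0.06 in SC07 (edgeR adjusted p = 0.143, and -0.21 with a call under library totals alone) and fell by 0.21 ± 0.06 in SC10. MRPS18B, a small subunit protein, stood at 0.06 ± 0.05 in SC07 (edgeR adjusted p = 0.267) and fell by 0.15 ± 0.05 in SC10, a call lost without SC10 replicate 2 (-0.10, edgeR adjusted p = 0.0617). MRPS18C, which takes the bacterial position in the small subunit, rose by 0.35 ± 0.10 in SC07 and 0.34 ± 0.10 in SC10. It lies on chromosome 4, whose other genes had median log2 changes of 0.38 in SC07 and 0.32 in SC10. MRPS18A and MRPS18B lie on chromosome 6, where these medians were -0.40 and -0.42. The part of the chromosomes in the paralogs' differences was not tested.

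Grouped by location in place of name, with MRPS18A and MRPS30 in the large subunit and MRPS36 in neither, the large subunit had 28 higher and 8 lower genes of 51 in SC07 and 26 and 9 in SC10. The small subunit had 17 higher and 2 lower of 26 in SC07 and 14 and 7 in SC10. Descent was assigned by gene name and was not checked against sequences or structures, so single members may be in the wrong group. MRPS28, higher in SC07 and in SC10, was counted as specific to mitochondria under this rule. Subunits here again went by name, so MRPS18A, MRPS30 and MRPS36 count as small subunit genes. By descent, of 30 large subunit genes with bacterial counterparts 16 were higher and 5 lower in SC07, and of 19 specific to mitochondria 11 were higher and 3 lower. For the small subunit by name the counts were 10 higher and 1 lower of 17 with bacterial counterparts, and 9 and 1 of 12 specific to mitochondria. MRPS30 and MRPS36 are among these 12, and both were higher in SC07 and in SC10. In SC10 the large subunit had 16 higher and 5 lower of the 30 with bacterial counterparts and 9 and 3 of the 19 specific to mitochondria. The small subunit had 8 higher and 6 lower of the 17, and 8 and 2 of the 12. Over all genes tested 31.5% were higher and 30.5% lower in SC07, and 33.5% and 32.4% in SC10. The groups by descent were not tested against each other.

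MRPL23, chosen after its values were seen, had the widest spread among libraries of a clone. It measured 27.1, 35.4 and 17.5 CPM in SC01, 27.9, 17.9 and 18.7 CPM in SC07 and 37.1, 16.6 and 21.6 CPM in SC10, with coefficients of variation of 33.6%, 25.9% and 42.6%. The median member had 3.85%, 3.69% and 6.68%, where all genes with at least 5 CPM had medians of 3.67%, 4.12% and 5.16%. MRPL23 differed by -0.31 ± 0.40 and -0.08 ± 0.39 from SC01 in SC07 and SC10 (edgeR adjusted p = 0.537 and 0.876), so a difference of the size seen in MRPL18 was not detectable for it.

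Members tended to move with the genes around them on the chromosome, while lying above them against SC01. For each member the median log2 change was taken over the other tested genes within 5 Mb (20 to 238 genes, members left out). Across the 78 genes, members' changes and these medians gave a Pearson r of 0.61 in SC07 against SC01, 0.64 in SC10 against SC01 and 0.71 in SC10 against SC07 (Spearman 0.60, 0.60 and 0.69). These are descriptions across genes that share libraries and, in part, neighbours. The median member lay 0.23 above its neighbours in SC07 and 0.18 above them in SC10, and 62 and 59 of 78 lay above. Between SC10 and SC07 it lay -0.07 from them, with 27 above. The part of the neighbourhood in the members' differences was not tested.

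Members were also set beside the other genes of their chromosome. On chromosome 2, where other genes had a median of 0.25 in SC07 and 0.26 in SC10, 7 of 8 members were higher in SC07 and 5 in SC10, among them MRPS9, MRPS5, MRPL35 and MRPL19. Of the other genes there, 50.7% and 51.8% were higher. On chromosome 17, with medians of 0.24 and 0.12, all 8 members were higher in SC07 and 6 in SC10, beside 48.1% and 40.7% of the other genes. Chromosome 8, with medians of 0.25 and 0.42, held MRPL13, MRPL15 and MRPS28, higher in both clones as were 49.3% and 60.7% of the other genes. The genes around MRPL15 had a median of 0.38 in SC07 and 0.71 in SC10, against 1.02 and 1.32 for MRPL15 itself. Chromosome 6 had the opposite course, with medians of -0.40 and -0.42, and held MRPL14, MRPL18 and MRPS10, lower in both. Of its 6 members 3 were lower in SC07 and 5 in SC10, beside 59.5% and 58.8% of its other genes. Its member MRPL2, chosen after its values were seen, was higher by 0.39 ± 0.05 in SC07 and 0.51 ± 0.05 in SC10 where the genes around it had medians of -0.39 and -0.38. Chromosome 12 had a median of -0.03 in SC07 and -0.34 in SC10, and its members MRPL42, MRPL51 and MRPS35 were all lower in SC10 against both other clones, where 54.1% of the other genes were lower against SC01 and 52.0% against SC07. On chromosome 5 the members did not go with the other genes in SC07. There the other genes had a median of -0.25 with 19.6% higher and 49% lower, while the 5 members had a median of 0.39 with 3 higher and 0 lower. In SC10 all 5 were higher (median 0.31), beside a median of -0.02 and 32.8% higher among the others. On chromosome 11 the other genes had a median of 0.25 in SC10 with 50.8% higher, while 3 of 7 members were higher and their median was 0.08. In SC10 against SC07, however, 5 of these 7 were higher (median 0.22), beside 56.0% of the other genes there (median 0.28). They were MRPL11, MRPL17, MRPL21, MRPL48 and MRPL49, among the 10 large subunit genes higher in that comparison. MRPL34 lay farthest above its neighbours, whose medians were 0.03 in SC07 and -0.09 in SC10.

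**Figure D5:**
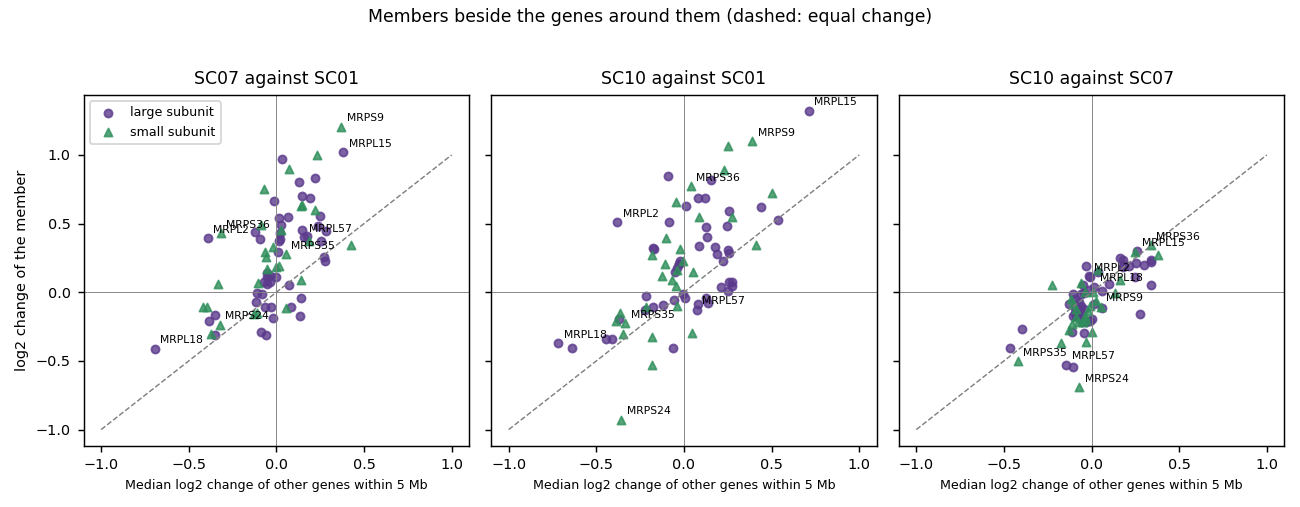
log2 change of each member against the median log2 change of other tested genes within 5 Mb, in each comparison, with large subunit genes as circles and small subunit genes as triangles. The dashed line marks equal change. Points rise from left to right in every panel, and most lie above the line in the contrasts with SC01.

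Promoters were compared because the members moved partly together. Windows of 300 bases, from 250 before to 50 after the annotated start, were found for 70 members in RefSeq on GRCh38.p14. None was found for MRPL2, MRPL10, MRPL13, MRPL15, MRPL21, MRPL23, MRPL35 or MRPS28. Both strands were searched for the cores CCGGAAG (ETS family, which includes GABPA), AAGATGGCG (YY1), CACGTG (E-box) and TCAAGGTCA (estrogen-related receptors), and for the palindromic core of NRF1. The ETS core was in 40.0% of members' windows, against 18.2% of 10740 tested protein-coding genes and 10.6% of all 27305 windows. The YY1 core was in 18.6%, against 3.72% and 1.81%. The NRF1 core (8.57%, against 10.8% and 6.05%), the E-box (14.3%, against 9.67% and 7.28%) and the estrogen-related receptor core (0 of 70, against 0.158% and 0.352%) were also counted, each core independently of the others. Members higher in both contrasts held the ETS core in 37.9% and the YY1 core in 10.3% of 29 windows, against 41.5% and 24.4% of the 41 windows of other members. A match describes the letters and not a bound site.

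These 3 stretches of 60 bases before the start show the ETS core in capitals near the start of MRPL58 and MRPS31, both higher in SC07 and SC10, and of MRPS18A, lower in SC10. They are the RefSeq windows at chr17:75012610-75012669 (plus strand), chr13:40771191-40771250 (minus strand) and chr6:43687792-43687851 (minus strand) of GRCh38.p14, written 5′ to 3′ along the gene.
MRPL58: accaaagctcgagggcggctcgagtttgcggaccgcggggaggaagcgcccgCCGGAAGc
MRPS31: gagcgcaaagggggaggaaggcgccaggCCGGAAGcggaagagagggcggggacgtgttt
MRPS18A: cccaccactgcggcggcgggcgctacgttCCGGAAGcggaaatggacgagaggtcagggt

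The YY1 core lay just after the start in 10 of its 14 matches, at 6 to 35 bases. Stretches of 21 bases around it, with the core in capitals, are shown for members higher in both contrasts (MRPS30, MRPL22), lower in both (MRPS10) and lower in SC10 (MRPS24) to show the letters around the core in members with different calls. The core begins 13, 35, 9 and 19 bases after the start in MRPS30, MRPL22, MRPS10 and MRPS24. They lie at chr5:44808954-44808974 (plus strand), chr5:154941102-154941122 (plus strand), chr6:42217838-42217858 (minus strand) and chr7:43869484-43869504 (minus strand).
MRPS30: cgggcaAAGATGGCGgcggcc
MRPL22: gggcgaAAGATGGCGgcggca
MRPS10: accggcAAGATGGCGgcgcgg
MRPS24: tggcccAAGATGGCGgcctcc

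The RNA partners of these proteins were also higher in SC07 and SC10. MT-RNR1, the rRNA of the small subunit, stood at 583, 606 and 637 CPM in SC01, 910, 910 and 960 CPM in SC07 and 893, 925 and 998 CPM in SC10, and rose by 0.61 ± 0.05 and 0.63 ± 0.05. MT-RNR2, the rRNA of the large subunit, rose by 1.06 ± 0.04 and 1.16 ± 0.04. Both lay lower in every SC01 library than in any other. Both together took 0.521% to 0.551% of counts in SC01, 0.976% to 1.03% in SC07 and 1.03% to 1.09% in SC10. Library preparation that selects polyadenylated RNA or removes rRNA changes how much of these RNAs is seen. The 13 mitochondrial mRNAs, which this ribosome translates, summed to 59874 to 61830, 87291 to 91166 and 96895 to 101322 CPM.

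Of 5 ribosome proteins with other names, 4 were higher and 1 lower in SC07 and 3 higher and 1 lower in SC10. Over all genes tested the shares were 31.5% higher and 30.5% lower in SC07, and 33.5% and 32.4% in SC10. PTCD3 rose by 0.40 ± 0.04 and 0.42 ± 0.04, and CHCHD1 by 0.21 ± 0.07 and 0.56 ± 0.07, in SC07 and SC10. AURKAIP1 rose by 0.30 ± 0.05 and 0.17 ± 0.05. GADD45GIP1 rose by 0.21 ± 0.06 in SC07 and differed by 0.08 ± 0.06 in SC10 (edgeR adjusted p = 0.19). DAP3, a GTP-binding protein of the small subunit, fell by 0.17 ± 0.04 and 0.13 ± 0.04. With library totals alone the calls of AURKAIP1 in SC10 (0.06, edgeR adjusted p = 0.33) and of CHCHD1 and GADD45GIP1 in SC07 (0.10 each, edgeR adjusted p = 0.21 and 0.10) were lost. The call of CHCHD1 in SC07 was also lost without SC01 replicate 3 or SC07 replicate 1 (0.18 and 0.17), and that of DAP3 in SC10 without SC01 replicate 3 or SC10 replicate 1 (-0.09 and -0.11).

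Of 16 mitochondrial translation factors, 13 were higher and 1 lower in SC07 and 12 and 2 in SC10. The shares over all genes tested were 31.5% higher and 30.5% lower in SC07, and 33.5% and 32.4% in SC10. LRPPRC, which stabilises mitochondrial mRNAs, stood at 256, 247 and 248 CPM in SC01, 452, 466 and 448 CPM in SC07 and 475, 468 and 463 CPM in SC10, and rose by 0.86 ± 0.04 and 0.90 ± 0.04. TACO1, an activator of translation of a cytochrome c oxidase subunit, rose by 0.85 ± 0.05 and 0.81 ± 0.05. MTFMT, which formylates the initiator methionyl-tRNA, rose by 0.79 ± 0.07 and 0.89 ± 0.07. TSFM, the exchange factor of the elongation factor Tu, rose by 0.28 ± 0.06 in SC07 and fell by 0.21 ± 0.07 in SC10, a call lost without SC10 replicate 1 (-0.14, edgeR adjusted p = 0.083). C12orf65, a release factor family member, fell by 0.28 ± 0.07 and 0.54 ± 0.07.

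Of 28 assembly and rRNA modification factors, 16 were higher and 5 lower in SC07, 11 and 6 in SC10, and 5 higher and 15 lower in SC10 against SC07. Of all genes tested, 31.5% were higher and 30.5% lower in SC07, 33.5% and 32.4% in SC10, and 24.8% and 23% in SC10 against SC07. FASTKD2, which acts on the large rRNA, had the largest rise, from 64.6 to 68.1 CPM in SC01 to 169 to 172 CPM in SC07 and 170 to 172 CPM in SC10 (1.35 ± 0.04 and 1.36 ± 0.04). RBFA, a small subunit maturation factor, rose by 0.40 ± 0.07 and 0.83 ± 0.07. MALSU1, which keeps the immature large subunit from joining the small one by binding MRPL14, stood at 76.5 to 78.3 CPM in SC01, 47.8 to 50.9 in SC07 and 41.0 to 47 in SC10 and fell by 0.64 ± 0.05 and 0.83 ± 0.05. NGRN fell by 0.45 ± 0.06 and 0.78 ± 0.06, and MTG2, a GTPase of large subunit assembly, by 0.40 ± 0.06 and 0.44 ± 0.06. MRM2, an rRNA methyltransferase, fell by 0.18 ± 0.06 and 0.58 ± 0.06.

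The 20 genes for charging mitochondrial tRNAs had 13 higher and 5 lower in SC07 and 13 and 4 in SC10. Shares over all genes tested were 31.5% higher and 30.5% lower in SC07, and 33.5% and 32.4% in SC10. MARS2, NARS2 and LARS2 rose by 1.09 ± 0.06, 1.08 ± 0.06 and 1.08 ± 0.05 in SC07, and by 0.82 ± 0.06, 1.38 ± 0.06 and 0.97 ± 0.05 in SC10. IARS2 rose by 0.99 ± 0.04 and 1.06 ± 0.04. AARS2 fell by 0.74 ± 0.05 and 0.75 ± 0.05, RARS2 by 0.68 ± 0.07 and 0.63 ± 0.07, and GATC, part of the enzyme that completes glutaminyl-tRNA, by 0.41 ± 0.06 and 0.90 ± 0.06.

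Among 10 listed regulators, most of them of nuclear genes for mitochondria, 3 were higher and 6 lower in SC07 and 4 and 5 in SC10. All genes tested had 31.5% higher and 30.5% lower in SC07, and 33.5% and 32.4% in SC10. PPARGC1A, a coactivator of such genes, stood at 30.4, 31.0 and 29.1 CPM in SC01, 473, 470 and 461 CPM in SC07 and 451, 456 and 393 CPM in SC10 (log2 changes of 3.96 ± 0.06 and 3.84 ± 0.06). Its partner ESRRA, one of the estrogen-related receptors, rose by 0.81 ± 0.05 and 1.10 ± 0.05, and TFAM, which packages mitochondrial DNA, by 0.47 ± 0.05 and 0.50 ± 0.05. PPARGC1B fell by 1.04 ± 0.08 and 1.10 ± 0.08. Of the other factors whose cores were searched in the promoters, NRF1 fell by 0.39 ± 0.07 and 0.46 ± 0.07, GABPA by 0.22 ± 0.07 and 0.35 ± 0.07, and its partner GABPB1 by 0.25 ± 0.06 and 0.32 ± 0.07. YY1 fell by 0.18 ± 0.04 in SC07 and differed by -0.07 ± 0.04 in SC10 (edgeR adjusted p = 0.17), where scaling by library totals alone gave a called difference of -0.18. MYC fell by 0.27 ± 0.04 and 0.30 ± 0.04, and PPRC1 rose by 0.30 ± 0.05 in SC10 and stood at 0.01 ± 0.05 in SC07 (edgeR adjusted p = 0.85).

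The cytosolic ribosome had the opposite direction. Of 77 tested genes for its proteins 1 was higher and 58 lower in SC07 (median -0.34), and 4 were higher and 64 lower in SC10 (median -0.39). Over all genes tested 31.5% were higher and 30.5% lower in SC07, and 33.5% and 32.4% in SC10. Their sum was 53710 to 57388 CPM in SC01, 42579 to 44912 CPM in SC07 and 40210 to 46975 CPM in SC10, with SC10 replicate 3 at the top of its clone as for the mitochondrial sums.

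Few reads were counted for copies of these genes, which does not show how many reads they share. Of 75 annotated MRPL and MRPS pseudogenes 52 had no count and 5 were tested, and together they held 0.156% of the members' counts. The highest was MRPL45P2 at a mean of 2.88 CPM. How reads that match a gene and a pseudogene equally were counted is not given in the sources used here. Exons of 41 members are overlapped in part by another gene, 10 of them over more than 25% of their bases. Without those 10, the counts were 24 higher and 8 lower of 43 in the large subunit and 17 and 2 of 25 in the small subunit in SC07, and 24 and 7, and 14 and 6, in SC10. Background shares were 31.5% higher and 30.5% lower of all genes tested in SC07, and 33.5% and 32.4% in SC10.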

How the data were processed

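RNA sequencing of 9 libraries was analysed from the authors' deposited table of raw counts per Ensembl gene. The submitters' processing notes name the tools HISAT2 and featureCounts and the build GRCh38. Not given in the sources used here are their versions, the annotation release, strandedness and how multimapping reads were handled, all of which can change counts of overlapping genes and copies. GENCODE 29 supplied names and positions for 57055 of 60675 IDs, including all 78 members.

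Libraries were assigned to clones by their labels. Genes passing edgeR's filterByExpr (18009) were scaled with TMM, and a robust quasi-likelihood model of edgeR 4.0.16 (R 4.3.3) was fitted to the 9 libraries, with Benjamini-Hochberg adjustment over all genes tested and a threshold of 0.05. The standard error of a log2 change follows from its F statistic. At these totals 3 counts correspond to 0.0760 to 0.0993 CPM. The fit was tested on simulated data.

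The members and gene lists were chosen with earlier results of these data known. Values are given for the 4 members with the largest called change per subunit, comparison and direction, the 3 highest and 3 lowest per kilobase in each subunit, members called in opposite directions, MRPS18A, MRPS18B, MRPS18C, MRPS30, MRPS36, MRPL12, the partner proteins, rRNAs and regulators, and up to 3 genes per direction and comparison of each other list.

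Same-numbered libraries of different clones deviated together weakly at most (correlations -0.06 to 0.23, above 0.1 in 3 of 9 pairs). The highest were those of SC01 replicate 3 with replicate 3 of SC07 and SC10 (0.21 and 0.23). Differently numbered libraries ran from -0.29 to 0.24, and replicate numbers were not taken as pairs. Alternatives were other scalings, filters and tests (DESeq2 1.42.0, limma-voom 3.58.1), a non-robust fit, a replicate block, pairs of clones alone, members by location, members without overlap and leaving out each library.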

Additional observations from a re-analysis of the deposited data

How the results depend on the processing

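Of 403 counts of calls recomputed under the alternatives, 400 lay within 1.5 times the reported count. With library totals alone, lower genes numbered 6 in place of 2 in the small subunit in SC07 and 13 in place of 8 in the large subunit in SC10, because that scaling moves the median of all genes to -0.12. Relative to that median the subunits kept medians of 0.27 and 0.29 in SC07 and 0.22 and 0.18 in SC10. Leaving out 1 library at a time, the small subunit had 1 to 3 lower genes in SC07, the 1 being without SC07 replicate 2, and the large subunit 6 to 9. With the replicate number as a block, the counts were 29 higher and 9 lower in the large subunit and 19 and 3 in the small subunit in SC07, and no count moved by more than 1.5 times (the small subunit's lower calls, from 2 to 3, moved by exactly that). Calls of single genes were followed only for the 85 genes chosen for naming, 38 of them members. Among these 38 members the block made MRPL21 higher and MRPS27 lower in SC07 (0.11 and -0.11) and MRPS34 lower in SC10 (-0.11). None of them was called without it, and changed calls of members not followed are not listed. Of 196 called values for single genes, 165 kept their call in every alternative and 0 changed sign. With library totals alone, the followed members that lost a call were MRPS34 in SC07 (0.06) and MRPS21 and MRPS27 in SC10 (0.11 and 0.05). Among the other ribosome proteins AURKAIP1 lost its call in SC10 (0.06), and CHCHD1 and GADD45GIP1 theirs in SC07 (0.10 each). Calls of METTL15 and CARS2 in SC07 and of MTRF1L and MTIF3 in SC10 were lost too. Among the followed genes, lower calls against SC01 were gained there in SC07 by MRPL55, MRPS17, MRPS18A and MRPS27 (-0.22, -0.27, -0.21 and -0.21). In SC10 they were gained by MRPL40, MRPL52, MRPS34, YY1 and TFB1M (-0.22, -0.21, -0.22, -0.18 and -0.21). Members not followed changed calls as well, since lower large subunit genes went from 8 to 11 in SC07. MRPL11 lost its call in SC07 without SC07 replicate 1 or 2 (-0.16 and -0.15) and MRPL48 without SC07 replicate 2 (-0.13). The calls of MRPL34 (-0.12) and MRPL19 (-0.12) between SC10 and SC07, and of MRPL57 in SC10, were lost under several settings. The cause was not tested. Depth limited MRPS24 and MRPL53 most, at under 4 CPM.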
